A study of Mus musculus with 4 samples.

Results

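The genes of the Runx family (Runx1, Runx2 and Runx3) and Cbfb, which encodes the shared partner of the RUNX proteins, were examined for binding of SCL, a transcription factor encoded by Tal1, in mouse mesoderm on its way to blood. A peak belonged to one of these 4 genes when the transcription start site (TSS) closest to its summit, among the TSSs of all protein-coding genes, was a TSS of that gene. This rule gave 18 peaks of 12885 in the deposited list, 16 at Runx1, 2 at Runx2 and 0 at Runx3 and at Cbfb. The list is longer than the number of bound loci given in the study, which names a filter of peaks in a genome viewer. Its criteria are not given in the sources used here, and every count, rank and share below rests on the whole list. The 4 genes are compared with 22217 protein-coding genes, all those whose TSS is the closest for some stretch of the genome.

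SCL binding was mapped by chromatin immunoprecipitation followed by sequencing (ChIP-seq) in cells sorted for the surface receptor FLK1 at day 3.5 of embryoid body culture. Embryoid bodies are aggregates in which embryonic stem (ES) cells differentiate, and the ES cells here were wild type, of the strain C57Bl/6 X Sv129. There were 2 libraries precipitated with an in-house rabbit anti-SCL serum and 2 input libraries of unenriched chromatin, from 2 independent differentiations. The deposited list is a single call on the merged ChIP libraries against the merged inputs, so no value below has a spread between replicates, and no test was made. FLK1 marks mesoderm that also gives rise to endothelium and heart, and a list of binding sites holds no expression by which the makeup of the sorted cells could be checked.

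RUNX proteins bind DNA through their Runt domain, and CBFB, which does not touch DNA itself, strengthens that binding. RUNX1 is needed for the first definitive blood cells to arise from endothelium, RUNX2 for bone formation, and RUNX3 for T cell and sensory neuron development. Runx1 is transcribed from a distal promoter, P1, and a proximal promoter, P2, and an enhancer active in emerging blood cells is known to lie in the long intron between them. SCL binds as a heterodimer with E proteins to the E-box (CANNTG) and joins GATA factors, LMO2 and LDB1 in a complex that can sit on CTG followed at a short distance by GATA.

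For each peak, fold enrichment is the ratio of ChIP fragments at the summit to the local background, each with 1 added. The pileup is how many ChIP fragments cover the summit, and the background is the local level of the input on the scale of the ChIP. Intervals of folds are exact Poisson 95% intervals from the pileup and cover counting error only. Peaks are named by the distance of their summit in kb from P1, or for Runx2 from its most 5′ TSS, with a minus sign for positions upstream of the gene. All positions are on mm9.

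The stretches of 101 bp centred on 8 summits are printed first, since they carry the strongest peaks at Runx1, every peak there with the CTG and GATA pair, and the Runx2 peak inside its gene. They are read 5′ to 3′ on the + strand. Capitals mark GATA with A or T before it and A or G after it, on either strand, and the CTG of a pair, which reads CAG where the pair lies on the other strand.
Runx1 +110.3 kb (chr16:92715913-92716013): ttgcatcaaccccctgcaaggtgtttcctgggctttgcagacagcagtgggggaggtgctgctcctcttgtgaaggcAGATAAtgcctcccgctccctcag
Runx1 +24.3 kb (chr16:92801940-92802040): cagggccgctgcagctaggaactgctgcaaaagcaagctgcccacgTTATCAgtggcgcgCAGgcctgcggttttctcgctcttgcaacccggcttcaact
Runx1 +3.6 kb (chr16:92822630-92822730): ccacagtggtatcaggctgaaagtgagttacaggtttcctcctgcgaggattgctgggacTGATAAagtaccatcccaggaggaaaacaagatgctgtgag
Runx1 −31.0 kb (chr16:92857216-92857316): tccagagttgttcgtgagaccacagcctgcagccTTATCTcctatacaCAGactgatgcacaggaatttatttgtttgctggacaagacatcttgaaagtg
Runx1 −170.3 kb (chr16:92996563-92996663): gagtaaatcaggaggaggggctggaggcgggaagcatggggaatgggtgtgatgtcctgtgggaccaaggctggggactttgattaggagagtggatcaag
Runx1 −303.6 kb (chr16:93129884-93129984): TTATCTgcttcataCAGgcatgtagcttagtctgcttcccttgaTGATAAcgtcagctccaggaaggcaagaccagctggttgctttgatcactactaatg
Runx1 −321.6 kb (chr16:93147878-93147978): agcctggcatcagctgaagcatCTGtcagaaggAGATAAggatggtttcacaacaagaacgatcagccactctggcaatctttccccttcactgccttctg
Runx2 +160.0 kb (chr17:44791647-44791747): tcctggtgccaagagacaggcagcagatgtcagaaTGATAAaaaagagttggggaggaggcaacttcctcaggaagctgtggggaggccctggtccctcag

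In the −321.6 kb stretch, which holds the strongest peak, the CTG lies upstream of an AGATAA on the same strand, with 9 bp between CTG and GATA. The +24.3, −31.0 and −303.6 kb stretches hold the pair on the opposite strand, again with 9 bp between its parts. The +110.3 and +3.6 kb stretches each hold a GATA without a paired CTG, and the −170.3 kb stretch holds no capital at all.

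Runx1 was densely covered by SCL peaks, Runx2 had 2, below the density of the whole list, and neither Runx3 nor Cbfb had any. Runx1 (ENSMUSG00000022952.9) lies on the minus strand at chr16:92601712-92826311 and had 16 peaks. Only Gadd45g, with 21, and Med13l and Gse1, with 19 each, had more. Of all protein-coding genes 29.1% had at least 1 peak, and the median among those was 1. At least 10 peaks were found at 0.248% of protein-coding genes, and Runx1 was the only one of the 4 genes among them.

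The number of peaks was set against the room each gene had to collect them. A TSS of Runx1 was the closest over 610.4 kb, which made Runx1 the 763rd longest of all genes by this measure. The neighbouring coding TSSs lay far off, that of Clic6 197.5 kb from the nearest Runx1 TSS on the 3′ side and that of Setd4 762.4 kb away on the 5′ side. Runx1 had 2.62 peaks per 100 kb of its stretch, while the whole list had 0.485 per 100 kb. The 763 genes with a stretch at least as long as that of Runx1, Runx1 included, had a median of 1 peak and a maximum of 19, and 5 of them had 16 or more. By density alone Runx1 stood less apart, at the 91.5th percentile of all genes, since a short stretch with 1 peak has a high density. Among the 55 genes with 10 or more peaks the median density was 2.06 per 100 kb, and 21 of them were at or above the density of Runx1.

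Runx2 (ENSMUSG00000039153.9 and ENSMUSG00000092206.1), at chr17:44632936-44951746 on the minus strand, had nearly the same stretch, 619.1 kb, but only 2 peaks, or 0.323 per 100 kb. Runx2 is itself longer than Runx1, 318.8 kb against 224.6 kb. The Runx2 density lay below that of the whole list and the Runx1 density above it. Among all genes, most of which had no peak, the Runx2 density was at the 73.7th percentile. Its 2 peaks were above the median of 1 peak of the 763 genes with a stretch at least as long as that of Runx1.

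Runx3 (ENSMUSG00000070691.4, chr4:134676567-134733905, + strand) had a stretch of 187.8 kb without a summit. The summit closest to a Runx3 TSS lay 84.8 kb away, past the 3′ end of the gene, and had Clic4 as its closest gene, with a fold of 23.9 and a pileup of 137. On the 5′ side the first summit lay 138.6 kb away, had Syf2 as its closest gene and a fold of 43.3. Peaks were therefore called on both sides of Runx3, but outside the stretch in which its TSS was the closest.

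Cbfb (ENSMUSG00000031885.7, chr8:107694574-107741886, + strand) had a stretch of only 46.7 kb, close to the median of 45.7 kb over all genes. The first summit upstream lay 74.9 kb from the TSS, nearest to Ces3b with a fold of 11.1. On the other side the first summit lay 93.9 kb past the 3′ end of the gene, nearest to Elmo3 with a fold of 7.76. The median background of the peaks on chromosome 8 was 5.24 fragments, above the 3.45 of chromosome 16 and the 3.67 of chromosomes 4 and 17. The peak closest to Cbfb, on the Ces3b side, had a background of 2.80 fragments, below each of these medians. The part of the background in the count at Cbfb was not tested.

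**Figure D1:**
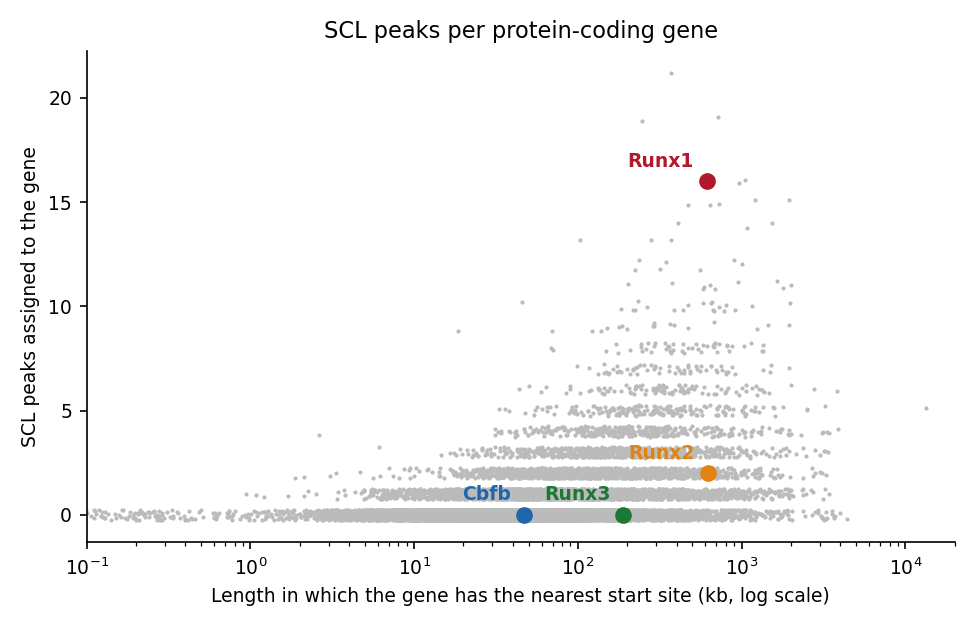
Number of SCL peaks assigned to each protein-coding gene (vertical axis, with a small random vertical shift of the grey points so that they can be told apart) against the length in which its TSS is the closest (horizontal axis, kb, log scale). Each grey point is a gene and the coloured points are the 4 genes, with Runx1 at 16 peaks and Runx2 at 2 over stretches of nearly equal length, and Runx3 and Cbfb at 0.

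The 16 Runx1 peaks spanned 511.6 kb, from 140.1 kb inside the gene to 371.4 kb upstream of P1. They fell into 5 intronic peaks, 3 intergenic peaks within 100 kb upstream of P1, and 8 intergenic peaks beyond 100 kb upstream. Peaks over 100 kb from the closest coding TSS thus made up 8 of 16 at Runx1 and 18.5% of the list. No Runx1 peak lay closer than 3.58 kb to a TSS. The median distance to the closest TSS was 124.2 kb at Runx1 and 24.1 kb in the whole list. The rule of assignment lets only a gene with distant neighbours hold such peaks.

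P1 lies at chr16:92826311 and P2 at chr16:92697573, 128.7 kb further into the gene, with further annotated TSSs up to 130.4 kb from P1. Of the 5 intronic peaks, 4 lay in the same intron, the second of 7 in the longest annotated transcript, which is 129.9 kb long and reaches from near P1 to the P2 TSSs. The other lay in the fourth intron, which is 20.2 kb long and downstream of P2.

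The intronic peak closest to P1, +3.6 kb (chr16:92822308-92822954), had a fold of 75.3 (68.0 to 83.1) with a pileup of 390 fragments on a background of 4.19. The +24.3 kb peak (chr16:92801771-92802326) had a fold of 21.2 (17.7 to 25.1) with a pileup of 131. It lay 23.6 to 24.1 kb downstream of the first start codon of the P1 transcripts. The +72.8 kb peak (chr16:92753379-92753697), in the middle of the intron, had the lowest fold of the 5, 17.5 (13.9 to 21.8), with a pileup of 78.

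The strongest intronic peak, +110.3 kb (chr16:92715668-92716602), lay 18.4 kb upstream of P2 and had a fold of 123.8 (114.5 to 133.8) with a pileup of 642 on a background of 4.19. The +140.1 kb peak (chr16:92685744-92686503), 9.72 kb downstream of the closest P2 TSS, had a fold of 19.7 (15.9 to 24.1) with a pileup of 91. The intronic peaks near P1 and in front of P2 thus stood above the other 3, whose intervals overlapped each other.

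Between P1 and 100 kb upstream, the −31.0 kb peak (chr16:92857081-92857428) had a fold of 19.4 (15.4 to 24.1) with a pileup of 78. The −57.9 kb peak (chr16:92883944-92884551) had a fold of 41.2 (36.6 to 46.1) with a pileup of 299 on a background of 6.29. The −78.1 kb peak (chr16:92904162-92904638) had a fold of 7.77 (5.29 to 11.0) with only 29 fragments. No overlap was seen among the intervals of these 3 folds.

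The far upstream peaks held both the highest and the lowest folds at Runx1. The −321.6 kb peak (chr16:93147741-93148706) had a fold of 298.0 (283.3 to 313.2), with 1546 fragments on a background of 4.19, and ranked 4th by fold and 24th by pileup in the list. The −303.6 kb peak (chr16:93129760-93130127), 18.0 kb from it, had a fold of 92.8 (84.5 to 101.6) with a pileup of 466. Beyond the strongest peak, the −327.2 kb peak (chr16:93153294-93153764) had a fold of 5.12 (3.68 to 6.95) with 39 fragments on a background of 6.81, the lowest at Runx1.

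The −354.3 kb peak (chr16:93180474-93180781) had a fold of 9.41 (6.73 to 12.8) and the −371.4 kb peak (chr16:93197645-93197957) one of 22.8 (18.1 to 28.3). The interval of the −354.3 kb peak covers the median fold of the list, 11.1, and that of the −371.4 kb peak lies above it. Closer to the gene, the −170.3 kb peak (chr16:92996344-92996874) had a fold of 90.2 (83.7 to 97.2) and a pileup of 704, the second highest at Runx1. Its neighbour −170.9 kb (chr16:92997012-92997481), with a summit 621 bp away, had a fold of 15.95 (13.4 to 18.9) and 132 fragments. The −180.8 kb peak (chr16:93006963-93007267) had a fold of 7.69 (5.69 to 10.2) and a pileup of 47. These 3 peaks are the only ones at Runx1 that follow each other within 10 kb in a run of more than a pair.

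**Figure D2:**
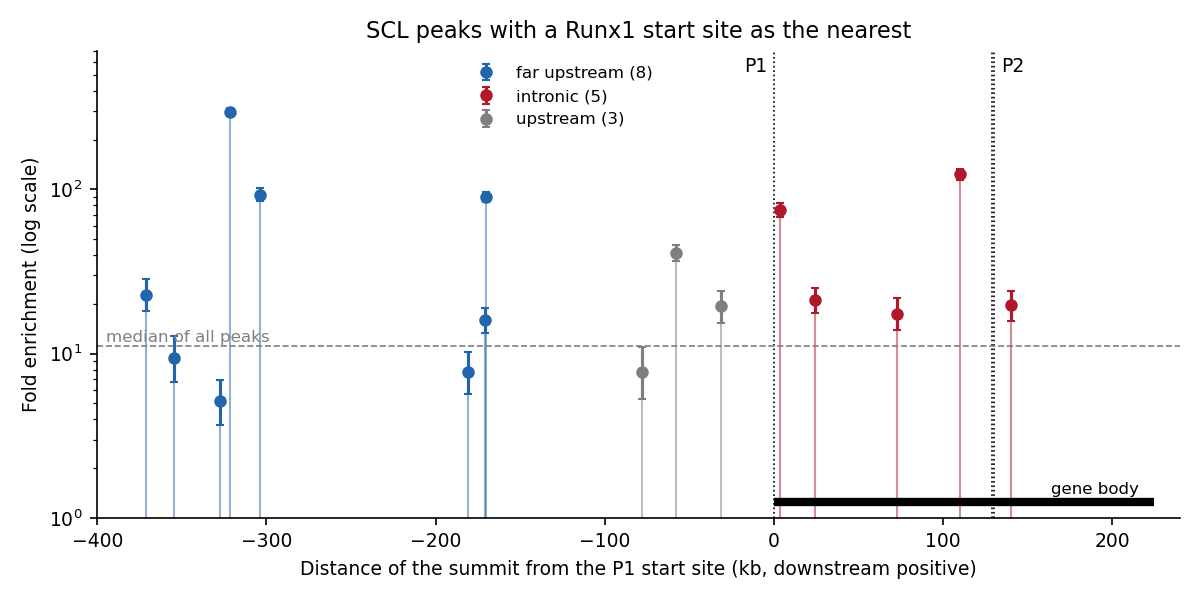
Fold enrichment (vertical axis, log scale) of the 16 Runx1 peaks against the distance of the summit from P1 (horizontal axis, kb, downstream positive), with exact Poisson 95% intervals from the pileup. Red points are intronic, grey points upstream and blue points over 100 kb upstream, dotted lines mark P1 and the TSSs of P2, and the dashed line the median of all peaks, 11.1, which 12 of the 16 exceed.

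Set side by side, the 5 intronic peaks had folds from 17.5 to 123.8 with a median of 21.2, the 3 upstream peaks from 7.77 to 41.2 with a median of 19.4, and the 8 far upstream peaks from 5.12 to 298.0 with a median of 19.4. The ranges overlapped and the medians lay close together. Every intronic peak exceeded the median fold of the list, as did 2 of 3 upstream and 5 of 8 far upstream peaks. The intronic peaks held 27.8% of the summed pileup of 4790 fragments at Runx1, the upstream peaks 8.48% and the far upstream peaks 63.7%. The 4 peaks with the highest pileups, at −321.6, −170.3, +110.3 and −303.6 kb, held 70.1% of it, and 3 of these 4 were far upstream. The median width was also higher in the intronic peaks, 647 bp against 419 bp far upstream and 397 bp in the whole list. The ranges of width overlapped, 319 to 935 bp in the intronic and 305 to 966 bp in the far upstream peaks.

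Over all 16, the median fold at Runx1 was 20.4 against 11.1 in the list, and 8 of 16 exceeded the upper quartile of the list, 20.1. The folds of the 16 peaks ran from 5.12 to 298.0, on both sides of the median of the list. The median pileup was 111 fragments at Runx1 and 53 in the list, and the median background 4.19 and 3.67 fragments. A fold of at least 100 was reached by 2 of the 18 peaks, −321.6 and +110.3 kb of Runx1, and by 1.67% of all peaks. The order by pileup was not that by fold, since the −170.3 kb peak had more fragments than the +110.3 kb peak, 704 against 642, on a higher background, 6.81 against 4.19.

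**Figure D3:**
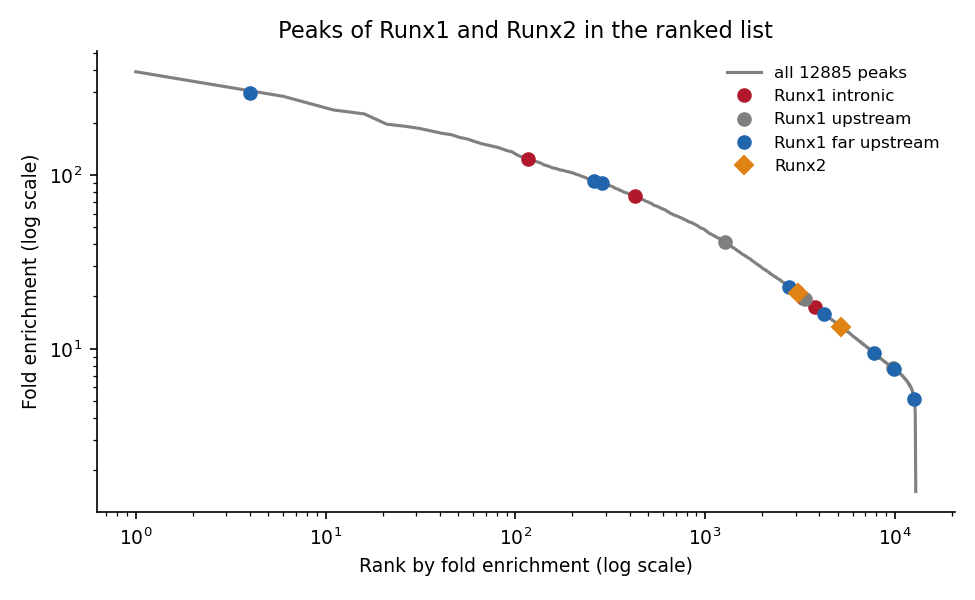
Fold enrichment (vertical axis, log scale) of the peaks of Runx1 and Runx2 against their rank by fold in the list of 12885 (horizontal axis, log scale), on the curve of all peaks in grey. Runx1 peaks lie along most of the curve, from rank 4 to rank 12648, and the 2 Runx2 peaks at ranks 3073 and 5208.

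Runx1 peaks had a close neighbour about as often as peaks of the list. Another summit lay within 10 kb for 5 of the 16 Runx1 peaks and for 31.1% of all peaks. The median distance to the next summit was 19.1 kb at Runx1 and 27.2 kb in the list. The border of the Runx1 stretch on the 5′ side was drawn by distance alone. Just inside it lay the −371.4 kb peak, with a fold of 22.8, and just outside it a peak at chr16:93217838-93218561, with a fold of 59.4 and a pileup of 245. This outer peak was 391.7 kb from P1 and 370.7 kb from the TSS of Setd4, and was therefore counted for Setd4. On the 3′ side the first peak outside had a fold of 10.9 and lay 4.19 kb from a TSS of Clic6.

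Both Runx2 peaks were of moderate strength. The +160.0 kb peak (chr17:44791508-44791874) lay in an intron of Runx2, 79.9 kb from its closest TSS. It had a fold of 21.0 (16.4 to 26.4) and a pileup of 71 on a background of 2.43 fragments. This is the lowest level in the list and is shared by 1893 of its peaks. The −300.8 kb peak (chr17:45252418-45252679) lay in an intron of Supt3h, the gene that neighbours and overlaps the upstream region of Runx2. It had a fold of 13.4 (9.85 to 17.8) and a pileup of 45 on the same background. The interval of the first lies above the list median of 11.1, and that of the second includes it.

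Short motifs were counted on both strands within 50 bp of each summit, and in windows of the same length 1 kb to either side of all summits as the background of the sequence. Binomial intervals of the shares treat the 18 peaks as independent draws, although 16 of them lie at the same gene and none is a replicate. Such intervals show only how few peaks a share rests on. GATA, with the flanking letters given above, was present in 14 of the 18 peaks (77.8%, exact binomial 95% interval 52.4 to 93.6%), in 73.2% of all peaks and in 17.8% of flanking windows. Its median distance from the summit was 12 bp in the 12 Runx1 peaks that had it and 16.5 bp in the list. The share at these genes was thus close to that of the list. The 4 peaks without GATA, all at Runx1, were −78.1, −170.3, −180.8 and −327.2 kb, and 3 of them had the lowest folds of the 18, from 5.12 to 7.77. The remaining peak without GATA, −170.3 kb, had a fold of 90.2. The median fold was 21.1 in the 14 peaks with GATA and 7.73 in the 4 without it, compared with 12.1 and 9.17 in the list.

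The composite, CTG with 7 to 9 bp between it and GATA, was present in 4 of the 18 peaks (22.2%, interval 6.41 to 47.6%), in 32.9% of all peaks and in 3.07% of flanking windows. The 4 were the +24.3, −31.0, −303.6 and −321.6 kb peaks of Runx1, at least 1 in each class. All 4 had the spacing of 9 bp, which 55.7% of all peaks with the composite had. Their folds of 21.2, 19.4, 92.8 and 298.0 gave a median of 57.0, against 18.6 in the other 14, and in the list the medians were 13.3 and 10.3. The strongest peak at Runx1 therefore held the composite, but the next strongest, +110.3 kb, did not. In the whole peak the composite was present in 5 of the 18 (27.8%), with the +3.6 kb peak added, and in 47.5% of all peaks.

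An E-box was present in 7 of the 18 peaks (38.9%, interval 17.3 to 64.3%), in 52.6% of all peaks and in 42.4% of flanking windows. None of the 5 intronic Runx1 peaks had one within 50 bp of the summit, although each had between 1 and 8 somewhere in the whole peak, as 90.1% of all peaks did. Within 100 bp of the summit, an E-box was present in 14 of the 18 peaks (77.8%) and in 73.6% of all peaks, so the order of the shares depended on the window. Within 50 bp of the summit, the E-box CAGCTG was present in 3 of the 18, at −180.8, −303.6 and −321.6 kb, all far upstream, and in 14.1% of all peaks. In the whole peak it was present in 7 of the 18 (38.9%) and in 34.5% of all peaks. These included the +140.1 and −31.0 kb peaks of Runx1 and the +160.0 kb peak of Runx2, which are not far upstream. Both Runx2 peaks had an E-box and a GATA, but not as the composite.

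The ETS core AGGAA, read by factors such as ETS1 and FLI1 that act with SCL and GATA2 in blood precursors, was present in 12 of the 18 peaks (66.7%, interval 41.0 to 86.7%), in 51.9% of all peaks and in 33.1% of flanking windows. Within 50 bp of the summit, all 5 intronic Runx1 peaks had it, against 3 of the 8 far upstream, and both Runx2 peaks. In the whole peak, AGGAA was present in 17 of the 18 (94.4%), all but −180.8 kb, and in 89.3% of all peaks. The RUNX core TGTGGT was present in 3 of the 18 (16.7%, interval 3.58 to 41.4%), at +72.8, −31.0 and −371.4 kb, and in 9.56% of all peaks and 7.90% of flanking windows. Read also as TGCGGT, it was present in 4 of the 18, with the +24.3 kb peak added, and in 10.7% of all peaks. Across the whole peak, TGTGGT was present in 8 of the 18 (44.4%) and in 32.4% of all peaks. The median fold was lower in the 12 peaks with the ETS core than in the others of the 18, 19.6 against 32.0, and in those with TGTGGT, 19.4 against 21.0. In the list these medians were 11.2 and 11.1 for ETS, and 10.9 and 11.2 for RUNX.

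Only the −170.3 kb peak, the second deepest at Runx1, had none of these motifs within 50 bp of its summit. Its 531 bp held no GATA of this form, 4 E-boxes, 3 ETS cores and 1 RUNX core. The smaller −170.9 kb peak beside it held 5 such GATAs and no E-box. That the letters were not found in a window says nothing of which factors bind there.

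**Figure D4:**
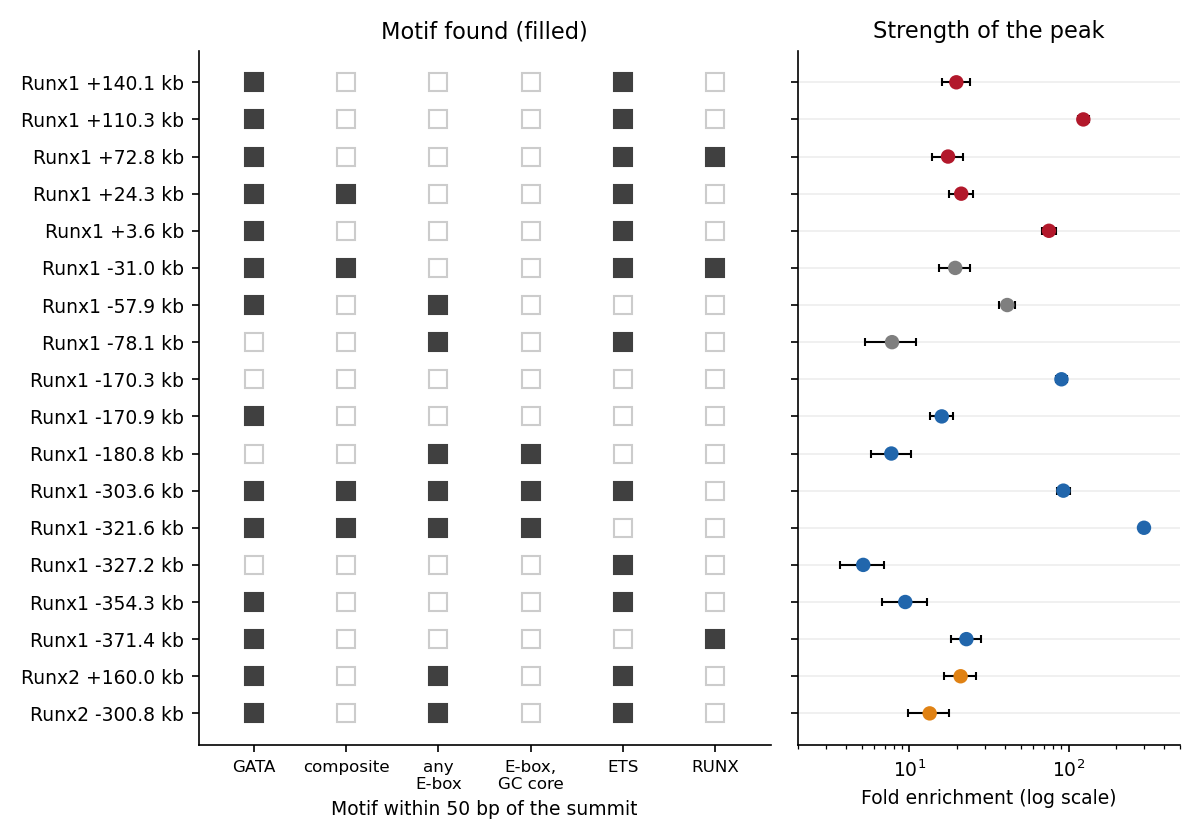
Motifs within 50 bp of the summit (left, filled where found, with the E-box of GC core being CAGCTG) and fold enrichment with exact Poisson 95% intervals (right, log scale) of the 18 peaks, Runx1 from its 3′ side to far upstream and then Runx2. GATA is filled in 14 and the composite in 4, and the −170.3 kb peak has an empty row beside a fold of 90.2.

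The genes with 10 or more peaks whose profile was closest to that of Runx1 were Ets1, Aff3, Rybp and Gse1, at Euclidean distances of 1.31, 1.34, 1.45 and 1.47 over the log2 values of peak number, median fold, highest fold and stretch. Ets1, an ETS factor of endothelium and lymphocytes, had 12 peaks with a highest fold of 224.6 over 1002 kb. Aff3, a nuclear transcriptional activator, had 11 with a highest fold of 153.0, and Rybp, a subunit of variant Polycomb complexes, had 15 with a highest fold of 118.6. Gse1, a component of a histone-demethylase corepressor complex, had 19 with a highest fold of 232.8, packed into 245.6 kb. The highest fold at Runx1, 298.0, was above that of each of these 4.

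Genes of the pathway were counted in 2 lists, each gene by its own closest TSSs. Of 25 cofactors that bind RUNX proteins or act with them, 14 had at least 1 peak (56.0%), with 48 peaks in all and a median highest fold of 20.2 in those bound, compared with 29.1% and 14.4 over all protein-coding genes. The cofactors had a longer median stretch than all genes, 110.4 kb against 45.7 kb. Ets1, which binds DNA together with RUNX1, led with its 12 peaks. Smad1, a transducer of BMP signals, had 7 with a highest fold of 94.7, Tle4, a Groucho corepressor, 6 with 46.1, and Hipk2, a nuclear kinase, 5 with 34.1. The other 11 cofactors had no peak, among them the coactivator gene Crebbp and the corepressor genes Sin3a and Ncor1.

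Of 19 genes that RUNX1 is known to control in blood, 18 were found among the annotated protein-coding genes and 11 of these had a peak (61.1%), with 24 peaks in all and a median highest fold of 34.5, beside the 29.1% and 14.4 of all protein-coding genes. Their median stretch, 34.7 kb, was shorter than that of all genes. Kit, the receptor of stem cell factor, had 7 peaks with a highest fold of 34.5, and Sfpi1, which encodes the myeloid factor PU.1, had 4 with 43.5. Nfe2, a factor of platelets and red cells, had 2 with a highest fold of 190.9, and Myb, needed by definitive progenitors, had 2 with 96.6. The other 7 genes of the list had no peak. Runx1 thus had more peaks than any gene of either list.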

How the data were processed

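ChIP and input libraries (2 of each) were grouped by their labels. The authors aligned reads to mm9 with Bowtie 1.1.2, removed duplicates, called peaks with MACS2 2.0.10 at a q of 0.01 on merged libraries, and set the list with the irreproducible discovery rate. The list carries no column for a separate library and no sequencing depth. Fold enrichment is a ratio that the authors' peak caller wrote, and the −log10 p and −log10 q values were also deposited as MACS2 gave them. Starts, ends and summits were used as deposited, counted here from 1, and the score column was not used.

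The pileup and background were solved together from the fold and the Poisson p. A whole pileup matched the p to within 0.001 on the −log10 scale in 99.9% of peaks. The precision of each value follows from its pileup, with a median of 53 fragments in the list and from 29 to 1546 at the genes described. Summits were assigned by protein-coding TSSs of GENCODE vM1 on NCBIM37, the genome of mm9. Motifs were read from that genome. Work was done in Python 3.11.15 with numpy 2.4.6, scipy 1.17.1, pandas 2.3.3 and pysam 0.24.0, and the solving and counting were tested on simulated data. The members and lists were chosen with earlier results of these data known. Named are the 4 genes with all their peaks, the 4 genes of each list with the most peaks (ties by highest fold), and the 4 genes most like Runx1. Genes without a peak, those with more peaks than Runx1, and those beside the borders were named after their values were seen. In the lists, Kat6a was matched as Myst3, Kat6b as Myst4 and Spi1 as Sfpi1, and Gfi1 was not among the protein-coding genes. The alternatives changed the annotation, the point assigned, the rule of assignment, the joining of peaks, the threshold and the motif window. TGCGGT was added after seeing the data.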

Additional observations from a re-analysis of the deposited data

How the results depend on the processing

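Of 61 alternatives over 14 results, 29 gave the same value. With peaks counted only inside the gene or 10 kb on either side, Runx1 had 5 peaks, all intronic, and Runx2 had 1. With TSSs of lincRNA and processed-transcript genes added, Runx2 had 1, because the +160.0 kb peak was then closest to 9530072K05Rik, and Runx1 stayed at 16. At a −log10 q of at least 50 Runx2 had 1. The far upstream peaks at Runx1 fell to 5 at a fold of at least 10 and likewise to 5 at a −log10 q of at least 50, since both thresholds remove weak peaks, and the total at Runx1 to 12. Runx3 and Cbfb stayed at 0 under every alternative run. Peaks per 100 kb at Runx1 lay between 1.97 and 2.89 and the median fold between 20.4 and 32.0, the highest at both thresholds. Widening the motif window raised the peaks with an E-box from 7 to 14 at 100 bp on each side and 17 in the whole peak, those with TGTGGT from 3 to 6 and 8, and those with AGGAA from 12 to 13 and 17, because a longer window holds more letters. Over all peaks the shares at these windows were 73.6% and 90.1% for the E-box, 17.8% and 32.4% for TGTGGT, and 74.8% and 89.3% for AGGAA. The E-box share at the 18 peaks, below that of the list at 50 bp, was above it at 100 bp, 77.8% against 73.6%, and the AGGAA share, above it at 50 bp, was below it, 72.2% against 74.8%. The GATA share turned likewise, from 77.8% against 73.2% to 83.3% against 84.6% at 100 bp and 83.3% against 89.4% in the whole peak. The composite share stayed below that of the list, 22.2% against 41.2% and 27.8% against 47.5%.

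No paired analysis was possible because merged libraries gave 1 value per peak. Leaving out each replicate was not run for the same reason. The intervals of folds hold counting error only, and those of motif shares reflect only the number of peaks. Depth limits the weakest peaks most, with 29 fragments at −78.1 kb, and a site bound too weakly to be called at Runx3 or Cbfb cannot be told from an unbound one.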
